A study of Rattus norvegicus with 47 samples.

Results

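Oxidative phosphorylation subunits were followed in lung and whole blood of rats that had inhaled crystalline silica or filtered air. The genes were chosen by a rule on name and level, which uses no difference between groups, although the family itself was picked with earlier results of these data known. The rule takes gene names starting with Nduf, Sdha, Sdhb, Sdhc, Sdhd, Uqcr, Cox4 to Cox8 or Atp5, with a mean of at least 5 CPM (counts-per-million of the library) over the libraries of a table. Each of the 4 gene lists held 30045 rows, of which 97 carried such a name. The level was reached by 82 of them in lung at both times and by 77 in blood at both times, by 83 in at least 1 table and by 76 in every table. Every gene that reached it was tested. Nduf genes were counted with complex I, except the Ndufaf assembly factors, which form a class of their own, and Ndufa4 and Ndufa4l2, which were counted with complex IV. Sdh genes, the assembly factor Sdhaf2 among them, were counted with complex II, Uqcr with complex III, Cox with complex IV and Atp5 with complex V. Atp5sl and Atp5s, the latter named Dmac2l in RefSeq, were counted with complex V by name and not by function.

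The rats were healthy male Fischer 344 animals of 1 inbred strain, whose age the labels do not give. They breathed either an aerosol of Min-U-Sil 5, a milled crystalline silica, or filtered air in whole-body exposure for 5 days, with silica at 15 mg/m3 for 6 hours a day. Lung and blood were taken 1 day and 6 months after the exposure ended. Each combination of tissue, time and treatment had 6 animals, except air lungs at 6 months with 5, which gave 47 libraries of 9643527 to 25875985 counts. Silica groups and air groups differed in nothing else that the labels state, and globin RNA had been depleted from all blood samples. Replicates are different animals by their numbers in the sample titles, and animals are named by those numbers below. The lungs of air animals 49 and 51 held the most heart muscle transcripts, and the blood of silica animal 63 stood apart in its scaling ; the member counts of lung at 6 months, of blood at 6 months and of the differences between times are given with and without them.

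Oxidative phosphorylation moves electrons from NADH and succinate through complexes I to IV of the inner mitochondrial membrane to oxygen, and the proton gradient that this builds drives ATP synthesis by complex V. Most subunits are encoded in the nucleus, and several complex IV subunits exist as isoforms tied to a tissue or to oxygen supply: COX4I2 is the lung isoform of COX4, and NDUFA4L2 is a relative of the complex IV subunit NDUFA4 that hypoxia is known to induce. In lung, single-cell work in other species places both of these genes mainly in pericytes and vascular smooth muscle. The subunits encoded by mitochondrial DNA were not analysed here.

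Nuclear subunit genes are textbook targets of the transcription factors NRF1, GABP (which binds the ETS motif) and YY1, so the promoter windows from 250 bases before to 50 bases after the start were searched for exact matches on either strand. Sequences are from RefSeq on the build GRCr8, which differs from the build of the counts, and 72 of 82 gene names were matched. Cox4i2 was among the names not matched, so its promoter was not searched. GCGCATGCG, the NRF1 motif, stood in 8 of 72 promoters (11.1%), against 1.66% of all 27457 promoters. CCGGAAG, an ETS motif, stood in 21 (29.2%), against 9.22%. AAGATGGCG, a YY1 motif, stood in 9 (12.5%), against 1.93%. ACGTG or GCGTG, core letters of hypoxia response elements added after the fold changes had been seen, stood in 44 (61.1%), against 42.9%. The end of GCGCATGCG can also begin a GCGTG match, and each motif was counted on its own. A match is a string of letters and shows no binding.

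The 5 promoters below are shown as examples. Those of Uqcrc1 and Cox4i1, whose levels differed little between silica and air, hold matches of NRF1 and YY1 (Uqcrc1) or of ETS (Cox4i1). Those of Ndufa4l2, Cox7a2l and Cox5a belong to members that passed the test in lung. Members that did not pass, such as Cox7b and Ndufb11, also held 0 matches of every motif searched. Whether the motifs go with the response to silica was not tested. Capitals mark GCGCATGCG and AAGATGGCG in Uqcrc1. In Cox4i1 they mark CTTCCGG, the reverse complement of the ETS motif, at both of its places, and CACGC and ACGTG, matches of the hypoxia core letters. Capitals mark ACGTG in Cox7a2l, and ACGTG and both GCGTG in Cox5a. The window of Ndufa4l2 held 0 matches. Those of Uqcrfs1 and Atp5e, which also passed in lung, held 1 match of the hypoxia core letters each and are not shown. The AAGATGGCG of Uqcrc1 spans the start site.
Uqcrc1 (chr8:118467973-118468272, plus strand): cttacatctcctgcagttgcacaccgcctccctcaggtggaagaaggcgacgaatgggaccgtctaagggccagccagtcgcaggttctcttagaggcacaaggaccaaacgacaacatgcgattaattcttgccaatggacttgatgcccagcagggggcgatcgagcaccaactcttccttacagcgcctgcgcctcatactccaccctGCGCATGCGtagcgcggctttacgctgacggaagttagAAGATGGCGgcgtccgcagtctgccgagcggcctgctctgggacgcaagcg
Cox4i1 (chr19:65630133-65630432, plus strand): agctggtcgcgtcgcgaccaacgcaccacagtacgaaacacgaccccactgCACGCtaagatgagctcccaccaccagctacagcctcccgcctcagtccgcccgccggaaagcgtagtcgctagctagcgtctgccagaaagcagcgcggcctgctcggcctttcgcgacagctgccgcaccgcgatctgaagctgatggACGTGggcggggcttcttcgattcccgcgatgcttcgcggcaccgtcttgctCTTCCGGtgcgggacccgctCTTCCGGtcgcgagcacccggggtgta
Ndufa4l2 (chr7:65241919-65242218, plus strand): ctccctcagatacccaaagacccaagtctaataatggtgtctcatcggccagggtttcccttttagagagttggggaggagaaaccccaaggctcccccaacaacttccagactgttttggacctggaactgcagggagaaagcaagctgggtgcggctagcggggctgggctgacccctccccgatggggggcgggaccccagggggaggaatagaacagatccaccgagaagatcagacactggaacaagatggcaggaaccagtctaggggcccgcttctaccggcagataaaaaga
Cox7a2l (chr6:16936324-16936623, plus strand): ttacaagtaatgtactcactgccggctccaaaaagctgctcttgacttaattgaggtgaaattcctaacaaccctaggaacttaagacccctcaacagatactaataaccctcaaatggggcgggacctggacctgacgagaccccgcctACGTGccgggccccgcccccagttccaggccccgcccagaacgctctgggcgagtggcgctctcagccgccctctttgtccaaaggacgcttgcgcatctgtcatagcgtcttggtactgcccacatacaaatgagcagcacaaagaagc
Cox5a (chr8:66818034-66818333, plus strand): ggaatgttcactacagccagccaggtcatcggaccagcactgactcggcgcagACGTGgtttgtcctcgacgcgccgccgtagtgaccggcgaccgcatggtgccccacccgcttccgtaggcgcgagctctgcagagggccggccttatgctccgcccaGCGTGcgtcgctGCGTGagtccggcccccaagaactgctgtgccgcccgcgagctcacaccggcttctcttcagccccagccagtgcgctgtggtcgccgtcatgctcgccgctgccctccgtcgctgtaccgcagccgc

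At 1 day after exposure no lung subunit rose and 3 fell in silica-exposed animals, all of them complex IV genes: Cox4i2, Ndufa4l2 and Cox7a2l. These 3 are 3.66% of the 82 members, against 14.1% of all 15331 genes tested that passed the same test in either direction, with 8.39% that rose and 5.72% that fell. The test was edgeR's quasi-likelihood test with Benjamini-Hochberg adjustment over all genes and a threshold of 0.05. At an unadjusted p under 0.05 there were 9 members, 2 higher and 7 lower in silica lungs, against 27.9% of all genes. The median log2 fold change of the members was -0.03 in silica over air lungs, with -0.0024 over all genes.

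Cox4i2 had 19.6 CPM in the lowest, 22.6 in the median and 24.3 in the highest silica lung, against 26.4, 29.8 and 31.0 CPM in air lungs. The groups did not overlap, as the plot of lung levels by library shows. The log2 fold change was -0.38 ± 0.06 (SE, n = 6 each, edgeR adjusted p = 0.000677). In bulk tissue fewer cells of a type and less RNA per cell cannot be told apart. Its ubiquitous counterpart Cox4i1 averaged 195 ± 9.28 CPM in silica lungs and 200 ± 12.0 CPM in air lungs (SD), a log2 fold change of -0.04 with a 95% interval of -0.13 to 0.06.

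Ndufa4l2 had 22.7, 24.2 and 28.4 CPM in the lowest, median and highest silica lung, against 28.8, 30.6 and 32.3 CPM in air lungs. Every silica lung was below every air lung here too, the closest being silica 47. The log2 fold change was -0.32 ± 0.06 (edgeR adjusted p = 0.0016). Ndufa4, which encodes the constitutive complex IV subunit, averaged 86.2 ± 5.72 CPM in silica lungs and 89.2 ± 7.15 CPM in air lungs (SD), with a 95% interval of the log2 fold change from -0.17 to 0.07.

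Cox7a2l encodes a factor that joins complexes III and IV into supercomplexes. It had 117, 124 and 132 CPM in the lowest, median and highest silica lung, against 132, 138 and 148 CPM in air lungs. The ranges touched at 1 silica lung, animal 44, which was above the lowest air lung by less than 1 CPM. The log2 fold change was -0.15 ± 0.04 (edgeR adjusted p = 0.014). The 3 calls held in each of the 11 other settings and in each of the 12 fits without 1 library. The settings that moved the level rule to 1 CPM or 10 CPM reuse the main fit, so they could not change a call.

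**Figure D1:**
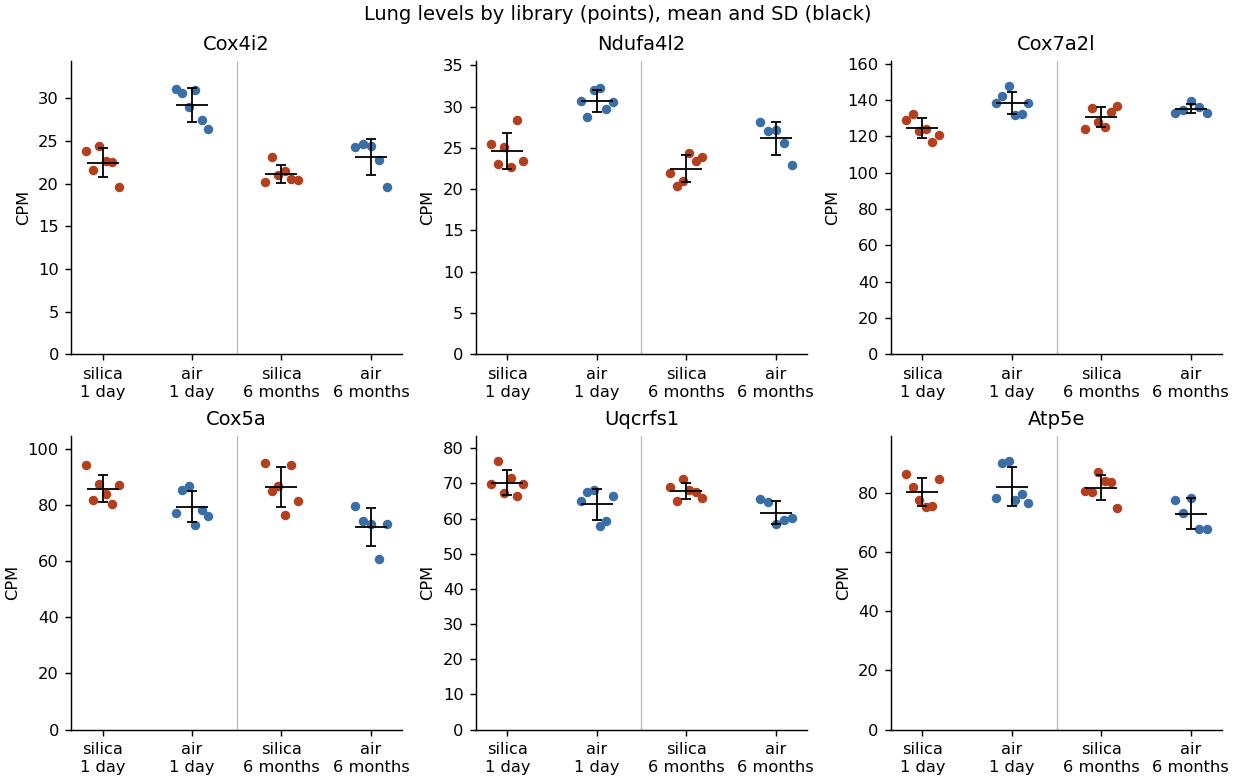
CPM of Cox4i2, Ndufa4l2, Cox7a2l, Cox5a, Uqcrfs1 and Atp5e in each lung library (points, silica left of air at each time, vertical axes from 0), with the mean and SD in black (n = 6, air at 6 months n = 5). Cox4i2 and Ndufa4l2 show no overlap between silica and air at 1 day, and Cox5a lies higher in silica lungs at 6 months.

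The rest of the machinery lay close to the air level at 1 day. Of the 82 members 78 had a 95% interval of the fold change that stayed within 1.25-fold in either direction, and all 82 stayed within 1.5-fold. The narrow intervals included the catalytic cores. Atp5b, the beta subunit that holds the catalytic sites of ATP synthase, averaged 679 ± 20.1 CPM in silica lungs and 676 ± 36.4 CPM in air lungs (SD), and Atp5a1, the alpha subunit, 338 ± 10.1 CPM in silica lungs and 340 ± 18.5 CPM in air lungs. Sdha, the flavoprotein of succinate dehydrogenase, had a log2 fold change of -0.04 with an interval of -0.11 to 0.03. Ndufs1, an iron-sulphur subunit of complex I, had one of 0.06 with an interval of -0.0035 to 0.12, and Uqcrc1, a core subunit of complex III, one of 0.03 with an interval of -0.06 to 0.13.

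The ubiquitous partners of tissue isoforms and the other core subunits gave small values too, and none passed. In complex IV, Cox5a averaged 85.8 ± 4.91 CPM in silica lungs and 79.4 ± 5.48 CPM in air lungs (log2 fold change 0.11, edgeR adjusted p = 0.149), and Cox6a1, Cox7a2 and Cox8a had log2 fold changes of -0.04, -0.06 and -0.02. In complex I, Ndufv1, which binds NADH, had -0.06 and Ndufab1, the mitochondrial acyl carrier protein, 0.02. The iron-sulphur subunit Sdhb of complex II had 0.03, and its membrane anchors Sdhc and Sdhd had 0.02 and -0.04. The 4 members whose interval reached beyond 1.25-fold were Cox4i2, Ndufa4l2, Ndufb10 (-0.18) and Atp5s (-0.20), the last being the lowest member in lung.

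By complex, no member of complexes I, II, III or V and no Ndufaf assembly factor passed the test at 1 day, out of 35, 5, 8, 16 and 5 tested. Median log2 fold changes were -0.03 for complex I, -0.01 for complex II, -0.04 for complex III, -0.04 for the 13 members counted with complex IV, and -0.0095 for complex V. The members next closest to the threshold were Uqcrfs1, the Rieske iron-sulphur protein of complex III, with a log2 fold change of 0.13 (edgeR adjusted p = 0.083), and the second of the 2 rows named Ndufa1 (written Ndufa1-2 here) with -0.17 (edgeR adjusted p = 0.117). Ndufa1 encodes a small membrane subunit of complex I, and any reads the 2 rows share could have been split between them by the counting, so each value is uncertain.

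**Figure D2:**
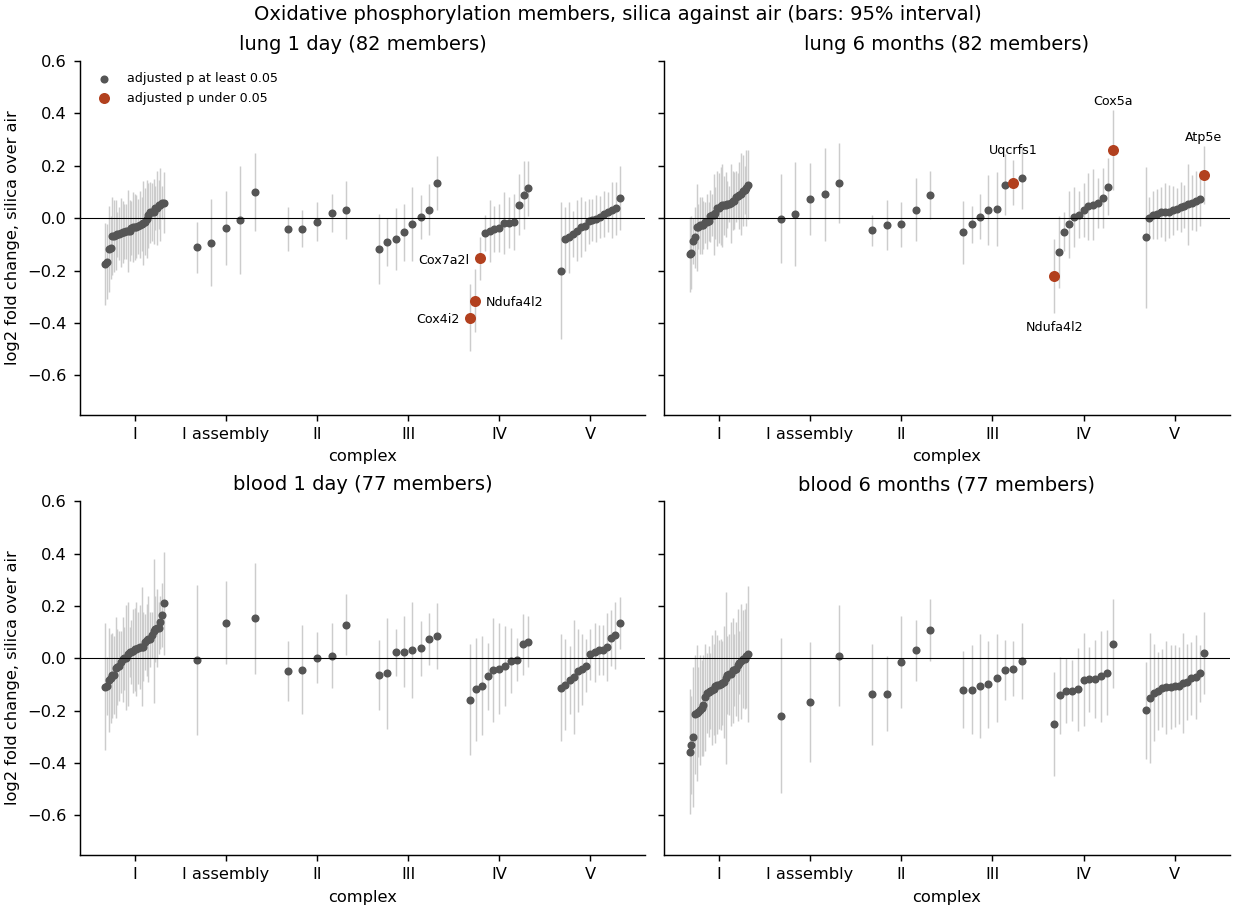
Log2 fold change of silica over air (vertical axis) for each member, ordered by value within its complex (horizontal axis), in the 4 comparisons, with 95% intervals as grey bars. Larger red points passed an adjusted p of 0.05: Cox4i2, Ndufa4l2 and Cox7a2l in lung at 1 day, Cox5a, Uqcrfs1, Atp5e and Ndufa4l2 in lung at 6 months, and none in blood, where most points at 6 months lie below 0.

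At 6 months after exposure 3 members rose and 1 fell in silica lungs: Cox5a, Uqcrfs1 and Atp5e were higher and Ndufa4l2 was lower. This is 4.88% of the 82 members, against 16.2% of all 15309 genes tested, 9.84% that rose and 6.38% that fell. At an unadjusted p under 0.05 there were 8 members, 7 higher and 1 lower, against 30.6% of all genes. The median log2 fold change of the members was 0.03, with -0.008 over all genes, and 59 of the 82 were positive, beside 7333 of all 15309 genes. Intervals stayed within 1.25-fold for 79 of the 82.

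Cox5a, a nuclear-encoded subunit of complex IV, had 76.4, 85.7 and 95 CPM in the lowest, median and highest silica lung. The 5 air lungs had 79.4, 74.2, 73.2, 60.9 and 73.0 CPM in animals 49, 51, 52, 53 and 54. Silica 61 was the only silica lung inside the air range. The log2 fold change was 0.26 ± 0.07 (SE, edgeR adjusted p = 0.0245), and it missed the threshold without air 53 (0.20, edgeR adjusted p = 0.0505) or without silica 62 (0.23, 0.0523).

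Uqcrfs1 averaged 67.8 ± 2.24 CPM in silica lungs, from 64.9 to 71.2, and 61.7 ± 3.21 CPM in air lungs, from 58.4 to 65.5 (SD, n = 6 and n = 5). The ranges overlapped by less than 1 CPM. The log2 fold change was 0.14 ± 0.04 (edgeR adjusted p = 0.0365), next to 0.13 at 1 day. Atp5e, the epsilon subunit in the central stalk of ATP synthase, averaged 81.7 ± 4.15 CPM in silica lungs, from 74.9 to 87.1, and 72.9 ± 5.13 CPM in air lungs, from 67.6 to 78.3. Its log2 fold change was 0.16 ± 0.05 (edgeR adjusted p = 0.0425), against -0.03 at 1 day.

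Ndufa4l2 had 20.3, 22.7 and 24.4 CPM in the lowest, median and highest silica lung at 6 months. The 5 air lungs had 28.1, 27.0, 27.2, 25.5 and 22.9 CPM in animals 49, 51, 52, 53 and 54. Air 54 lay inside the silica range and the other air lungs above it. The log2 fold change was -0.22 ± 0.07 (edgeR adjusted p = 0.0379). Cox4i2 averaged 21.1 ± 1.1 CPM in silica lungs and 23.1 ± 2.12 CPM in air lungs, a log2 fold change of -0.13 ± 0.06 that did not pass (edgeR adjusted p = 0.19), and that passed without air 54 (-0.19, edgeR adjusted p = 0.0331). Cox7a2l had a log2 fold change of -0.05 ± 0.03 (edgeR adjusted p = 0.342).

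The cores of the complexes again lay near the air level at 6 months. Atp5b averaged 640 ± 22.0 CPM in silica lungs and 635 ± 37.6 CPM in air lungs (log2 fold change 0.01, 95% interval -0.08 to 0.10), and Atp5a1 336 ± 12.5 CPM in silica lungs and 328 ± 14.4 CPM in air lungs (0.04). Sdha had a log2 fold change of -0.05, Sdhb 0.09, Sdhc 0.03, Sdhd -0.02, Ndufs1 -0.01, Ndufv1 0.02, Ndufab1 0.06 and Uqcrc1 -0.02. Cox4i1, the partner of Cox4i2, had 0.06 (95% interval -0.04 to 0.15) and Ndufa4, the partner of Ndufa4l2, 0.04 (95% interval -0.08 to 0.17). Among the remaining complex IV genes Cox8a had 0.12 (edgeR adjusted p = 0.121), Cox6a1 0.01 and Cox7a2 0.0042.

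By complex, the calls at 6 months were 0 of 35 in complex I, 0 of 5 Ndufaf factors, 0 of 5 in complex II, 1 of 8 in complex III, 2 of 13 in complex IV and 1 of 16 in complex V. Median log2 fold changes were 0.04 for complex I, 0.07 for the Ndufaf factors, -0.02 for complex II and 0.03 for each of complexes III, IV and V, and 15 of 16 complex V members were positive. Within complex I the values ran from -0.14 for Ndufa3 to 0.13 for Ndufa2. Uqcrq came next to the threshold, with 34.3 ± 1.19 CPM in silica lungs and 30.8 ± 2.74 CPM in air lungs (0.16, edgeR adjusted p = 0.0747).

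The calls at 6 months rest on few libraries. Leaving out 1 library at a time gave 0 to 5 members called in place of 4: 0 without air 53, 1 without silica 58, silica 60 or silica 62, and 2 without air 51, air 52, silica 59 or silica 61. Without air 49 there were 5, all higher, and without air 54 there were 5, 1 higher and 4 lower. Uqcrfs1 was lost in 7, Ndufa4l2 in 7 and Atp5e in 8 of these 11 fits. Upper-quartile factors lost Atp5e (edgeR adjusted p = 0.0509), and a fit with no filter on low counts lost Ndufa4l2 (edgeR adjusted p = 0.0599).

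No member's silica effect in lung was shown to differ between 6 months and 1 day (0 of 82 with edgeR, 0 with DESeq2, against 1.4% of all genes, 1.12% higher and 0.253% lower; 9 members with an unadjusted p under 0.05, against 13.5% of all genes). The smallest p belonged to Cox4i2, whose log2 fold change was higher by 0.26 ± 0.09 at 6 months than at 1 day (edgeR adjusted p = 0.171). Next were Atp5e with 0.20, the assembly factor Ndufaf3 with 0.19, Uqcr10 with 0.19, Ndufb1 with 0.20, Ndufa2 with 0.20, Cox7a2l with 0.11 and Ndufa1-2 with 0.22, with edgeR adjusted p between 0.218 and 0.35. Without air 49 and air 51 the count was still 0 of 82, with 14 members at an unadjusted p under 0.05, and Cox4i2 had 0.31 (edgeR adjusted p = 0.155).

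The count of one isoform relative to its partner within a library does not depend on how libraries are scaled, and these ratios are given as a description, chosen after the fold changes had been seen. They are counts not divided by transcript length, so their size is not a relative abundance. At 1 day Cox4i2 had 11.5 ± 0.845 counts per 100 counts of Cox4i1 in silica lungs, from 10.3 to 12.4, and 14.7 ± 1.32 in air lungs, from 13.1 to 16.2 (SD, n = 6 each). The groups did not overlap. At 6 months the ratio was 11.1 ± 0.962 in silica lungs and 12.6 ± 0.987 in air lungs, with overlap.

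Ndufa4l2 had 28.7 ± 3.54 counts per 100 counts of Ndufa4 in silica lungs and 34.5 ± 2.01 in air lungs at 1 day, where silica 47 reached 34.7 and overlapped the air range. At 6 months it had 28.3 ± 2.68 in silica lungs, from 25.4 to 32.2, and 33.9 ± 1.06 in air lungs, from 32.7 to 34.7. No silica lung reached the air range at 6 months, and without air 49 and air 51 the air value was 34.0 ± 1.09, from 32.7 to 34.7. Cox8b per 100 Cox8a was 2.63 ± 0.321 in silica lungs and 3.50 ± 0.957 in air lungs at 1 day, and 2.63 ± 0.264 in silica lungs and 3.81 ± 1.16 in air lungs at 6 months, where the air value without air 49 and air 51 was 3.22 ± 0.818 (n = 3). Cox6a2 per 100 Cox6a1 spanned 0.537 to 2.25 in silica lungs and 0.232 to 3.08 in air lungs at 1 day, with wide overlap. Cox8b and Cox6a2 lay under 5 CPM in lung and were not members.

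**Figure D3:**
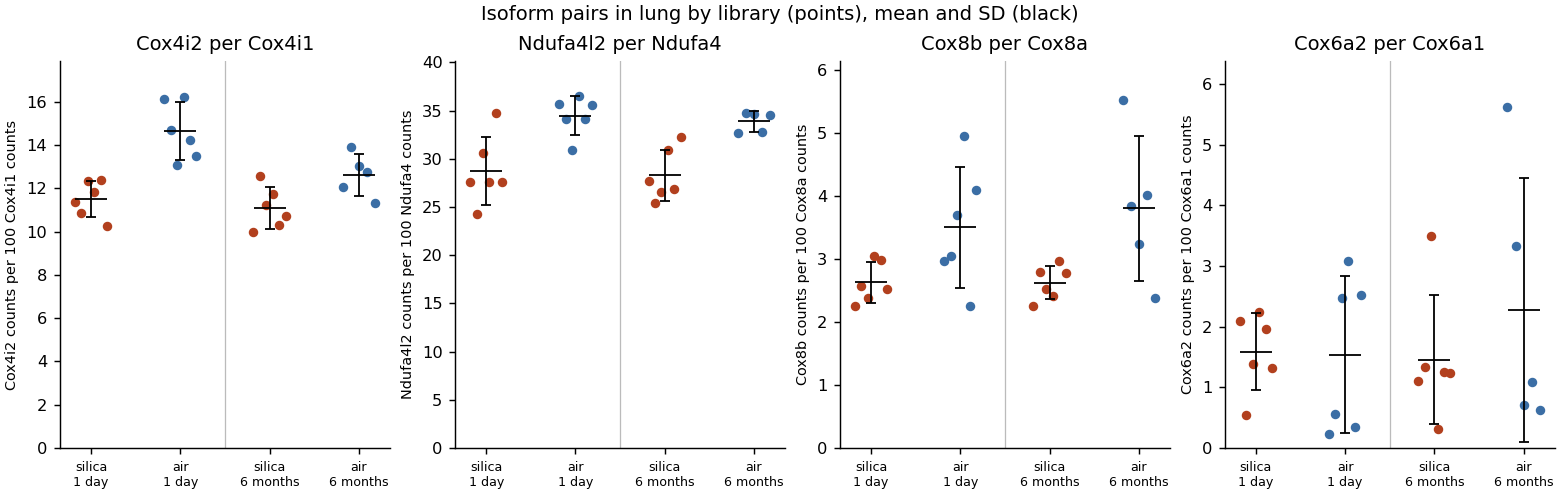
Counts of the tissue isoform per 100 counts of its partner (vertical axes, from 0) in each lung library, silica left of air at 1 day and 6 months, with the mean and SD in black. Cox4i2 per Cox4i1 separates silica from air at 1 day, Ndufa4l2 per Ndufa4 does so at 6 months, and the muscle isoforms Cox8b and Cox6a2 spread widely in air lungs.

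Cell type markers differed in the same lungs. Of all genes tested there 8.39% rose and 5.72% fell at 1 day, and 9.84% rose and 6.38% fell at 6 months. Of 8 alveolar type 1 markers 5 fell at 1 day and 3 at 6 months, and their summed level was 7308 to 7576 CPM in silica lungs and 8020 to 8680 CPM in air lungs at 1 day, and 7100 to 7961 CPM in silica lungs and 8112 to 8971 CPM in air lungs at 6 months, without overlap. Ciliated cell markers fell in 1 of 9 at each time. At 1 day 4 had positive and 5 negative log2 fold changes (median -0.03), and at 6 months all 9 were negative (median -0.24). Their sum was 695 to 819 CPM in silica lungs and 906 to 984 CPM in air lungs at 1 day, also without overlap. At 6 months the sum was 598 to 699 CPM in silica lungs and 687 to 920 CPM in air lungs, with overlap. Of 10 endothelial markers 5 fell at 1 day and 10 at 6 months in silica lungs. Their summed level was 4150 to 4582 CPM in silica lungs and 4597 to 5053 CPM in air lungs at 1 day, and 3706 to 4324 CPM in silica lungs and 4674 to 5130 CPM in air lungs at 6 months. Of 12 fibroblast and smooth muscle markers 2 fell at each time. At 1 day 11 had negative log2 fold changes and 1 a positive one (median -0.13). At 6 months 8 were negative and 4 positive (median -0.12). Their summed level was 2316 to 2936 CPM in silica lungs and 2727 to 2958 CPM in air lungs at 1 day. At 6 months it was 2141 to 2475 CPM in silica lungs and 2265 to 2444 CPM in air lungs. Neutrophil markers rose in 5 of 9 at 1 day and 2 of 9 at 6 months. Alveolar type 2 markers rose in 2 of 10 and fell in 1 at 1 day, and rose in 8 of 10 at 6 months. Macrophage markers rose in 6 of 10 and fell in 2 at 1 day, and rose in 8 and fell in 1 at 6 months. The lung's defining markers were present throughout, with the type 2 sum between 22010 and 38700 CPM. Their part in the member results was not tested.

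Heart muscle markers were uneven between lungs. Their sum was 37.0 to 179 CPM in silica lungs and 15.9 to 244 CPM in air lungs at 1 day, and 34.5 to 256 CPM in silica lungs and 14.1 to 543 CPM in air lungs at 6 months, highest in air 49 and air 51. Of the 9 tested 0 passed at either time, with medians of -0.32 and -0.90. Without air 49 and air 51, a fit added after the data had been seen, 4 members rose and 0 fell at 6 months: Ndufa4l2 was lost (-0.16, edgeR adjusted p = 0.208), Atp5e was lost (0.20, 0.069), Cox5a had 0.32 and Uqcrfs1 0.19, and Uqcrq, a small subunit of complex III, passed (0.23, 0.0167). At 1 day the erythroid marker sum was 3482 to 4563 CPM in silica lungs and 4615 to 6064 CPM in air lungs, without overlap.

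In blood no subunit passed the test at 1 day (0 of 77, with edgeR and with DESeq2), against 1.4% of the 12253 genes tested. At an unadjusted p under 0.05 there were 7 of the 77, all higher in silica blood. Of all 12253 genes 12.9% had such a p in either direction, 851 of them higher and 724 lower. Ndufb1, a small complex I subunit, had the smallest p, with 25.9 ± 1.53 CPM in silica blood and 23.5 ± 0.828 CPM in air blood (SD, n = 6 each) and a log2 fold change of 0.14 ± 0.05 (edgeR adjusted p = 0.208). The next were Atp5e with 0.13, Ndufa8 with 0.16, Ndufv2 with 0.11 and Sdha with 0.13, with edgeR adjusted p between 0.212 and 0.333. The median log2 fold change was 0.02, with -0.01 over all genes, and 72 of 77 intervals stayed within 1.25-fold. Neutrophil markers rose in 4 of 9 in the same blood, beside 1.19% of all genes that rose. Their sum was 4042 to 4852 CPM in silica blood and 2721 to 3202 CPM in air blood.

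The cores lay near the air level in blood at 1 day. Atp5b averaged 1326 ± 133 CPM in silica blood and 1393 ± 228 CPM in air blood (log2 fold change -0.07, 95% interval -0.29 to 0.15), and Cox4i1 395 ± 25.2 CPM in silica blood and 406 ± 54.4 CPM in air blood (-0.04). Uqcrh had -0.06 and Ndufs1 -0.00021. Complex IV had 9 of 11 values below 0 and a median of -0.04, with Cox7b the lowest at -0.16, whereas complex V had a median of 0.02.

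At 6 months most blood members had values below 0 in silica over air, and none passed. With edgeR 0 of 77 passed, with DESeq2 0, and 1 of all 11629 genes tested passed (0.0086%). A negative log2 fold change was measured for 70 of the 77, all 8 of complex III and 33 of the 35 of complex I among them. Over all genes 6128 of 11629 were negative. All 9 members with an unadjusted p under 0.05 were lower. Of all genes 8.7% had such a p in either direction, 580 of them higher and 432 lower. The median of the members was -0.10, with -0.0087 over all genes. Mitochondrial ribosomal proteins had a median of -0.08 (51 of 70 negative) and cytosolic ribosomal proteins one of -0.07 (77 of 85 negative) in the same comparison.

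Ndufb7, a complex I subunit, had the smallest p there: 7.15, 7.56 and 7.87 CPM in the lowest, median and highest silica blood, against 7.96, 9.60 and 10.5 CPM in air blood. The groups did not overlap. Its log2 fold change was -0.33 ± 0.09 (unadjusted p = 0.00168, edgeR adjusted p = 0.539). Ndufa1 had -0.36, Cox7c -0.25, Ndufv2 -0.21 and Ndufc1 -0.30, with edgeR adjusted p between 0.539 and 0.554.

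Atp5b, the member of highest CPM in blood, lay near the air level: it averaged 1538 ± 159 CPM in silica blood and 1517 ± 105 CPM in air blood at 6 months (log2 fold change 0.02, 95% interval -0.14 to 0.18). Sdha had 0.11 and Ndufa4 0.06. Cox4i1 had -0.05, Uqcrh -0.10, Atp5a1 -0.06, Uqcrc1 -0.04, Sdhb -0.14 and Sdhd -0.13, each with an interval that included 0. The intervals are wider than in lung: 58 of 77 stayed within 1.25-fold and 76 within 1.5-fold.

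The size of this shift depended on single blood libraries. Silica 63 had a summed member level of 5700 CPM, while all silica blood libraries at 6 months spanned 5700 to 7282 CPM around a median of 7140, and air blood spanned 6809 to 8121 CPM around 7094. Its TMM normalization factor of 1.17 was the highest of that table and its erythroid marker sum of 70310 CPM the lowest. As a share of its own counts the members made up 0.666%, inside the range of air blood from 0.651% to 0.774%. Whether the scaling of this library accounts for its low CPM was not tested. Without it 64 of 77 members were negative and 0 passed, 4 had an unadjusted p under 0.05, all lower, and the median log2 fold change was -0.06. Ndufb7 then had -0.34 and Ndufa1 -0.30, both with an edgeR adjusted p of 0.7. The median was also nearer to 0, at -0.07, without air 51, the highest air library.

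**Figure D4:**
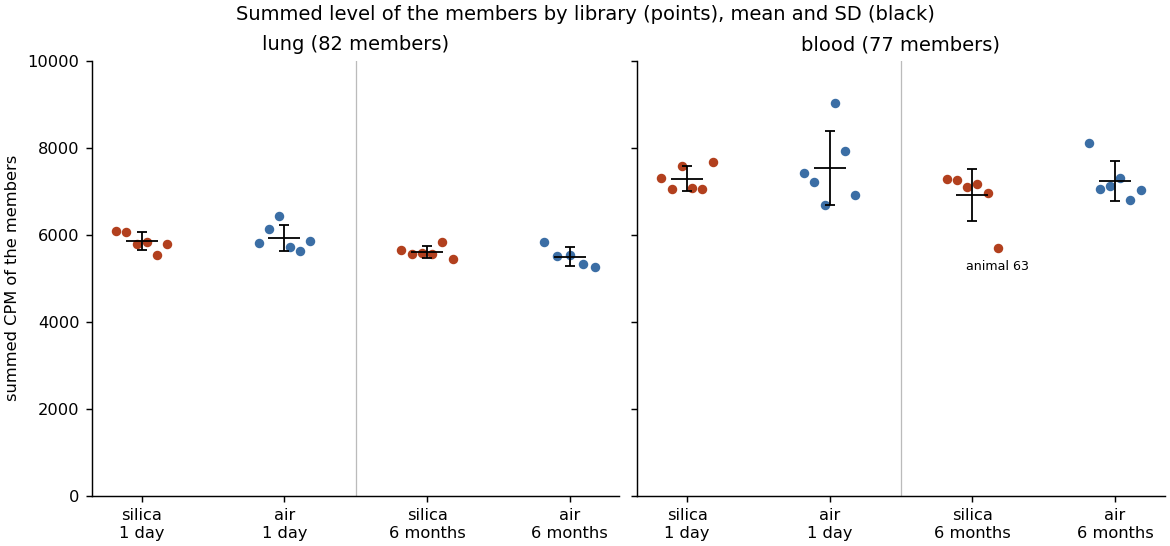
Summed CPM of all members (vertical axis, from 0) in each library of lung and blood, silica left of air at 1 day and 6 months, with the mean and SD in black. Lung libraries sit between 5261 and 6442 CPM with silica and air interleaved, and the blood library of silica animal 63 lies apart at 5700 CPM.

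The difference between times in blood passed for 0 members with edgeR and 0 with DESeq2, and for 0% of all genes. At an unadjusted p under 0.05 there were 13 of 77 members, all lower at 6 months. Of all 12444 genes 10.7% had such a p in either direction, 790 of them higher and 536 lower. Ndufv2, a complex I subunit, led with -0.31 ± 0.09 (edgeR adjusted p = 0.168). It was followed by Ndufb7 with -0.36, Atp5e with -0.32, Cox7c with -0.31, Ndufv1 with -0.20, Ndufb1 with -0.23, Ndufa1 with -0.45 and Ndufa6 with -0.24. Without silica 63 the count was still 0 of 77, with 9 members at an unadjusted p under 0.05, all lower, and Ndufv2 had -0.29 (edgeR adjusted p = 0.205).

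The silica effect in lung minus that in blood was tested for the 76 members of every table. At 1 day Ndufb1 passed, with a difference of -0.29 ± 0.07 (edgeR adjusted p = 0.018), 1.32% of members against 4.03% of all genes (2.05% higher and 1.98% lower in lung). It had 25.1 ± 1.26 CPM in silica lungs and 27.2 ± 2.25 CPM in air lungs, beside the higher mean in silica blood given above. Ndufb1 stands on 2 rows as well, the second near 0 CPM in every table and no member, so any reads the rows share could have been split between them. Lung and blood of an animal carry the same number, and with the animal as replicate block, over the animals with both tissues, the difference was -0.29 and no longer passed (edgeR adjusted p = 0.0528). The next were Sdha with -0.21, Ndufv1 with -0.19, Ndufa8 with -0.24, Ndufb10 with -0.28, Atp5e with -0.21, Uqcr11 with -0.22 and Ndufaf3 with -0.31, with edgeR adjusted p between 0.0556 and 0.107.

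At 6 months Cox5a passed, with a difference of 0.36 ± 0.09 (edgeR adjusted p = 0.0255), again 1.32% of members against 3.53% of all genes (2.53% higher and 1% lower in lung). It was higher in silica than in air lungs, while it averaged 68.4 ± 3.29 CPM in silica blood and 74.6 ± 5.65 CPM in air blood. With the animal as replicate block the difference was 0.35 (edgeR adjusted p = 0.075). Ndufb7 passed in its place (0.51, edgeR adjusted p = 0.0488, against 0.35 and 0.0552 without the block). The fit with the block kept only animals with both tissues. It left out lung of air 49 and silica 64, and blood of air 55, air 56 and silica 63. The part of the block and that of the libraries left out cannot be told apart here. The others of the 8 smallest p were Atp5e with 0.34, Sdha with -0.18, Cox7c with 0.31, Ndufc1 with 0.39, Ndufb6 with 0.29 and Cox8a with 0.22.

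Some partners of the chain outside the name rule passed in lung. Cycs, cytochrome c, which carries electrons from complex III to complex IV, rose at both times: 80.9 ± 3.44 CPM in silica lungs and 72.1 ± 5.84 CPM in air lungs at 1 day (log2 fold change 0.17, edgeR adjusted p = 0.0383), and 78.1 ± 5.61 CPM in silica lungs and 67.8 ± 5.99 CPM in air lungs at 6 months (0.20, edgeR adjusted p = 0.0456). Slc25a5, an ADP/ATP translocase of the inner membrane, also rose at both times (0.16 at 1 day, edgeR adjusted p = 0.013, and 0.17 at 6 months, 0.0259). These were 2 of the 17 electron carriers and exchangers tested at each time (11.8%), and 0 fell, beside 8.39% of all genes that rose at 1 day and 9.84% at 6 months. Atpif1, the inhibitor of ATP synthase, rose in lung at 6 months, with 54.9 ± 2.58 CPM in silica lungs and 48.2 ± 2.16 CPM in air lungs (0.19, edgeR adjusted p = 0.0102), and not at 1 day (0.04, 0.722).

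Of 32 assembly factors outside the prefixes, Surf1, which helps assemble complex IV, fell in lung at 1 day (-0.22, edgeR adjusted p = 0.00483) and rose in blood at 1 day (0.23, edgeR adjusted p = 0.0358). It had 23.5 ± 1.18 CPM in silica lungs and 27.4 ± 1.35 CPM in air lungs, and 17.7 ± 0.595 CPM in silica blood and 15.0 ± 0.840 CPM in air blood. The tissue difference was -0.50 (edgeR adjusted p = 3.61e-05, and 0.000801 with the animal as replicate block). At 6 months Coa3, another complex IV assembly factor, rose in lung (0.19, edgeR adjusted p = 0.0217), the 1 member of that list that passed there. These lung counts of 1 of 32 (3.12%) are below the share of all genes called, 14.1% at 1 day and 16.2% at 6 months.

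None of the 17 tricarboxylic acid cycle genes passed in lung at 1 day, and 3 (17.6%) rose at 6 months, beside 9.84% of all genes that rose: Suclg1 and Suclg2, subunits of succinyl-CoA ligase, and Dld, the shared dehydrogenase subunit of the oxo-acid complexes. Suclg1 averaged 120 ± 6.28 CPM in silica lungs and 101 ± 1.32 CPM in air lungs (0.25, edgeR adjusted p = 0.00111). Of 15 regulators of mitochondrial biogenesis Pprc1, a coactivator of the PGC-1 family, rose in lung at 1 day (0.29, edgeR adjusted p = 0.0012), 6.67% of the list, and 0 passed at 6 months. The silica effect on Pprc1 at 1 day was higher in lung than in blood by 0.30 (edgeR adjusted p = 0.022), which did not pass with the animal as replicate block (edgeR adjusted p = 0.0515), and that on Tfam, the mitochondrial transcription factor, was lower in lung (difference -0.34, edgeR adjusted p = 0.027, and 0.0183 with the block). That on Suclg1 at 6 months was higher in lung by 0.32 (edgeR adjusted p = 0.0278). With the block, over only the animals with both tissues, it was higher by 0.42 (edgeR adjusted p = 0.0172). Mitochondrial ribosomal proteins rose in 2 of 73 at 1 day and 4 of 73 at 6 months, and of 86 cytosolic ribosomal proteins 2 rose at 1 day, and 1 rose and 1 fell at 6 months, all under the share of all genes given above. In blood no gene of the tricarboxylic acid cycle, carrier, biogenesis or ribosomal lists passed at either time, nor any assembly factor at 6 months.

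The same genes were set side by side between tissues in air animals, as a description. In air animals at 1 day 55 of the 83 members were higher in lung than in blood with no overlap between animals, against 72.1% of all genes, and 15 were higher in blood with no overlap, against 13.8%. Thus 66.3% and 18.1% of the members stood on these sides. At 6 months the counts were 57 and 17, against 77.1% and 12.5% of all genes (89.5% without overlap in either direction, next to 85.9% at 1 day), and 70 members stood on the same side at both times. Blood CPM share their denominator with erythroid transcripts, whose summed level was 57730 to 100400 CPM in air blood and 4615 to 6064 CPM in air lungs at 1 day, so levels across tissues are relative.

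Of the 15 members higher in blood at 1 day 6 belong to complex IV, 4 to complex V, 4 to complex I and 1 to complex III. Ndufa1-2 averaged 46.8 ± 2.22 CPM in air lungs and 494 ± 77.4 CPM in air blood at 1 day, 10.5-fold higher in blood. Uqcrh, the hinge protein of complex III, averaged 81.2 ± 6.73 CPM in air lungs and 677 ± 118 CPM in air blood, 8.34-fold higher in blood. Cox7b was 5.79-fold and Cox6a1 3.61-fold higher in blood, and Atp5b 2.06-fold. Other subunits of the same complexes stood the other way round.

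Ndufa5, a complex I subunit, averaged 36.3 ± 1.98 CPM in air lungs and 2.33 ± 0.478 CPM in air blood, 15.6-fold higher in lung. Sdha averaged 158 ± 3.65 CPM in air lungs and 28.4 ± 1.5 CPM in air blood, 5.55-fold higher in lung, and Ndufb3 was 3.87-fold higher in lung. Cox4i2 averaged 29.2 ± 1.99 CPM in air lungs and had 0 to 4 counts per air blood library at 1 day. Ndufa4l2 averaged 30.7 ± 1.33 CPM in air lungs and had 0 counts in every air blood library, so it was at least 132-fold higher in lung at 1 day and at least 99.6-fold at 6 months, against a floor of 3 counts per blood library. Fibroblast and smooth muscle markers summed to at most 1.4 CPM in any blood library.

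**Figure D5:**
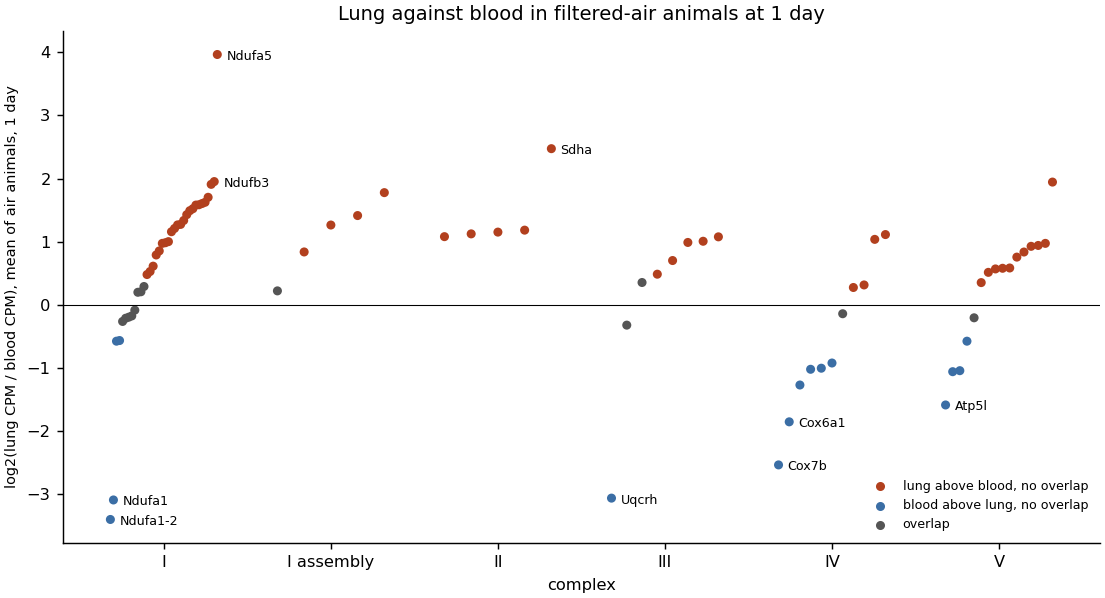
Log2 ratio of the mean CPM in air lungs over that in air blood at 1 day (vertical axis) for 81 of 83 members by complex (horizontal axis). Cox4i2 and Ndufa4l2, at or near 0 in blood, are not drawn. Red points are higher in lung and blue points higher in blood without overlap between animals, and grey points overlap; Ndufa5 and Sdha stand highest, and Ndufa1-2, Ndufa1 and Uqcrh lowest.

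At the edge of the level rule, Atp5s with 5.40 CPM and Ndufaf5 with 9.48 CPM were the lowest members in lung at 1 day, and Ndufaf2 with 4.89 CPM and Ndufaf6 with 3.78 CPM the highest left out. In blood at 1 day Ndufaf7 with 9.38 CPM and Ndufaf3 with 9.59 CPM were the lowest inside, and Ndufaf5 with 3.79 CPM and Ndufaf1 with 3.08 CPM the highest outside. Rows named Atp5f1, Cox6c-ps1, Cox7b2 and Cox8c held 0 counts in every library, and the 10 further rows that reached 5 CPM in no table included Cox6a2 and Cox8b, both muscle isoforms, and Cox6b2. Of the 76 members of every table, all were tested in all 8 comparisons.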

How the data were processed

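RNA-seq of rat lung and globin-depleted whole blood was analysed from 4 gene tables, 1 for each tissue and time. The authors deposited estimated counts per gene; per the submitters' processing notes, which list the build Rnor_6.0, the tools were Salmon 1.10.1 and STAR 2.6.1d, with Trim Galore 0.6.7, cutadapt 3.4 and bcl2fastq 2.19, and the labels' protocols describe stranded poly(A) libraries. These estimated counts were rounded to whole numbers, so reads shared by near-identical genes are split by the authors' estimation. Library totals were 9643527 to 25875985 counts. Intervals of fold changes are at 95%.

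Silica was compared with air in each table with edgeR 4.0.16 (R 4.3.3): trimmed mean of M values (TMM) normalization, filterByExpr with a minimum count of 10, the quasi-likelihood test and Benjamini-Hochberg adjustment over all genes tested. CPM use the TMM library sizes. Differences of the silica effect between times or tissues are interaction terms of a fit over both tables. Named are, in each comparison, members past the threshold (up to 3 a complex and direction), the 5 of smallest p where fewer than 5 passed, the 8 of smallest p in differences of effects, a list of core subunits and isoform partners, and the 2 genes of smallest p in each direction from each pathway list; Cox7b, Uqcrh, Ndufb10, Ndufa3, Ndufa2, Atp5s, Coa3, Tfam, Dld and the members in the comparison of tissues were added after their values were seen. DESeq2 1.42.0 and limma-voom (limma 3.58.1) were alternatives. The fits recovered changes in simulated counts. The settings and rates of that check are not given here, so it cannot be weighed. Members, lists and tests were chosen with earlier results of these data known.

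No 2 libraries of a group were alike within sampling noise (chi-square per degree of freedom 3.76 to 35.3). Lung and blood carry animal numbers, which pair them: the labels give both tissues of an animal the same number. The correlation of their deviations from the group means ran from -0.102 to 0.154 and was above 0.1 in 7 of 21 pairs. Exposure chambers and cage pairs are not in the labels, so a shared chamber and the treatment cannot be told apart. Protein sequences were not analysed here.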

Additional observations from a re-analysis of the deposited data

Results flagged for a closer look

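Groups of 5 or 6 libraries were examined, 112 in all. Chance flags about 1 in 20 independent groups, but these groups share libraries, and the sum of all members holds those of the complexes. A library stood apart from the others by Dixon's test in 11 groups. Of these, 6 belong to the blood of silica animal 63 at 6 months: its summed level was 5700 CPM for all members, 1069 for complex I, 710 for complex III, 1668 for complex IV and 2112 for complex V, and Cox7a2l had 200.4 CPM, each the lowest of its group.

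The other 5 were spread over groups. Complex I assembly factors summed to 27.4 CPM in the blood of air animal 53 at 6 months, complex II to 165 CPM in the blood of air animal 38 at 1 day, and complex III to 594 CPM in the lung of air animal 39 at 1 day. Complex IV summed to 1154 CPM in the lung of silica animal 62 and to 2484 CPM in the blood of air animal 51, both at 6 months. Without silica 62 in lung Cox5a did not pass at 6 months (log2 fold change 0.23, edgeR adjusted p = 0.0523).

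The silica effect differed between lung and blood for Ndufb1 at 1 day (-0.29, lung minus blood) and for Cox5a at 6 months (0.36), both by an interaction term. Both were lost with the animal as replicate block, a fit that at 6 months also left out animals without both tissues.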

How the results depend on the processing

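No named gene that passed the threshold in the main or in the alternative run turned its direction between them. Turns of direction in genes that passed in neither were not counted. The 3 lung calls at 1 day held in every setting that refitted the counts. Log2 fold changes ran from -0.41 to -0.34 for Cox4i2, -0.36 to -0.29 for Ndufa4l2 and -0.17 to -0.14 for Cox7a2l. The 4 lung calls at 6 months became 0 to 5 when 1 library was left out; the cause was not tested beyond the smaller groups. The count of tissue differences ran from 0 to 3 at 1 day and from 0 to 3 at 6 months when 1 library was left out, against 1 each. At 1 day it was 0 without blood of air 37, 41 or 42 or of silica 43, 46 or 48, 2 without blood of silica 45 or lung of silica 43 or of air 37, 40 or 41, and 3 without lung of silica 44. At 6 months it was 0 without lung of air 53, 2 without blood of air 56 or lung of silica 64 or air 49, and 3 without blood of air 55.

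With the animal as replicate block, over only the animals with both tissues, 0 tissue differences passed at 1 day and 1 at 6 months (Ndufb7 in place of Cox5a). DESeq2 gave 3 at 1 day and 4 at 6 months, and a minimum count of 50 and upper-quartile factors gave 2 each at 6 months; the cause was not tested. The members' median log2 fold change ran from -0.05 to -0.0055 in lung at 1 day, 0.0087 to 0.07 in lung at 6 months, 0.0026 to 0.03 in blood at 1 day and -0.12 to -0.06 in blood at 6 months. In lung the interval was widest at both times for Atp5s, the member with the fewest counts.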
